A study of Mus musculus with 12 samples.

Results

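Imprinted microRNA (miRNA) genes of mouse chromosome 12 were followed in small RNA libraries from the hippocampus: miR-493, miR-337, miR-540, miR-431, miR-433, miR-127, miR-434, miR-136, miR-341 and miR-370, 10 in all. They were found by collecting every sequenced insert (tag) that matched one of the 10 annotated hairpins exactly over its whole length, out of 1090 miRNA names searched in the same way. Together they held 740683 of 30022476 miRNA counts, on 403 distinct tags and 20 mature arms. The 12 libraries came from individual male C57BL/6NCrl mice aged 6 to 8 weeks, 1 mouse per library. In each of 2 time courses, 1 mouse was untreated (NT) and 1 mouse each was taken 0.5, 1, 3, 6 or 24 h after electroconvulsive shock (ECS), a current that depolarizes neurons throughout the brain, so that every group had 2 libraries. Libraries are named by time and time course (NT-1, 24h-2). The hippocampus as a whole was used, so fewer cells of a type and less of a miRNA per cell cannot be told apart.

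The Dlk1-Dio3 domain is imprinted: protein-coding genes such as Dlk1, Rtl1 and Dio3 are expressed mainly from the paternal chromosome, and the noncoding RNAs Meg3, Rian and Mirg, together with the miRNAs, from the maternal one. Rtl1 encodes a retrotransposon-derived protein needed in the placenta, and the miRNAs transcribed from the strand opposite to it are fully complementary to its mRNA and direct its cleavage. A miRNA gene gives a hairpin from which Drosha and Dicer cut a duplex. Its 5′ or 3′ strand (arm) is loaded into an Argonaute protein, and bases 2 to 8 of that strand (the seed) pair with target mRNAs. Which base comes first therefore sets the seed.

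The RefSeq mature sequences (GRCm38.p6) of the arms that carried most of the counts are shown first, because the counts below are divided among them. Capitals mark the seed.
miR-127-5p: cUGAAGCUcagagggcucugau
miR-127-3p: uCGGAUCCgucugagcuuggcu
miR-433-3p: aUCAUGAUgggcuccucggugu
miR-341-3p: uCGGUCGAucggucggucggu
miR-434-5p: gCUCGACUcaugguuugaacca
miR-434-3p: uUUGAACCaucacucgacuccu
miR-540-5p: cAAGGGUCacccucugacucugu
miR-337-5p: cGGCGUCAugcaggaguugauu
miR-136-5p: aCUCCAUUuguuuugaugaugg
miR-136-3p: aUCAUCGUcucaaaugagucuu
miR-370-3p: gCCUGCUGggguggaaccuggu
miR-431-3p: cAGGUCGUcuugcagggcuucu
miR-493-5p: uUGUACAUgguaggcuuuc
No seed was shared between any of the 20 mature arms of the 10 genes. Among all mouse mature sequences in the table, miR-370-5p shared its RefSeq seed with miR-1193-3p and miR-540-3p with miR-6915-5p, and the other 18 arms shared theirs with none.

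The 10 genes lie on the plus strand within 38104 nt (GRCm38, GENCODE M21), and the annotation divided them into 3 groups. The first group, miR-493 (chr12:109580233-109580315), miR-337 (chr12:109585789-109585885) and miR-540 (chr12:109586080-109586146), begins 8507 to 14354 nt after the annotated end of Meg3 and lies in no annotated gene of the same strand. The second group, miR-431 (chr12:109590447-109590537), miR-433 (chr12:109591715-109591838), miR-127 (chr12:109592846-109592915), miR-434 (chr12:109594506-109594599) and miR-136 (chr12:109595327-109595388), lies opposite the coding sequence of Rtl1. The third group, miR-341 (chr12:109611500-109611595) and miR-370 (chr12:109618258-109618336), lies in an intron of Rian. None of the 10 lay inside Meg3 as annotated, so the name of that gene is used here only for the neighbourhood. The most abundant tag of each of the 10 arms of the Rtl1 group had its exact reverse complement in an Rtl1 transcript, and none of the 10 arms of the other groups did. Mir3544, annotated opposite miR-337, received 1 count in all libraries, and Mir3071, opposite miR-136, received 0, which allows up to 3 counts.

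The Rtl1 group held 90.2% of the counts of the 10 genes, the Rian group 8.12% and the group after Meg3 1.68%. MiR-127 alone held 67.5% (499594 counts), miR-433 18.0% (133113), miR-341 7.44% (55071) and miR-434 3.36% (24887). The other 6 genes held between 0.227% (miR-493) and 1.09% (miR-136) each. The share of the Rtl1 group was 93.3% to 96.5% in the second time course and 81.6% to 91.9% in the first without NT-1, and 47.1% in NT-1, where miR-341 supplied most of the remainder (95% Wilson intervals at most 1.44 points wide). Reads were amplified without molecular identifiers, so that all intervals on shares cover counting error only.

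Accepted reads per library ranged from 1897490 (6h-2) to 7657222 (0.5h-2), and miRNA counts from 439362 (6h-1) to 4282033 (NT-2). MiRNAs made up 10.1% to 32.7% of accepted reads in the first time course and 50.9% to 69.6% in the second. One library stood apart by the length of its tags: 51.4% of all miRNA counts of NT-1 were on tags of 18 or 19 nt, against 4.54% to 16.9% in the other 5 libraries of the first time course and 0.911% to 3.78% in the second. Neuronal miRNAs (miR-124, miR-9, miR-128 and miR-138) held 14.3% to 31.2% of miRNA counts in the first time course and 6.06% to 16.6% in the second, and miRNAs of the posterior body axis, a check of the tissue label, at most 0.000612%. The smooth muscle miRNAs miR-143 and miR-145a held 6.28% to 14.4% in the first time course and 0.548% to 1.63% in the second, and the red blood cell miRNAs miR-451a, miR-144 and miR-486 0.0332% to 0.199% and 0.0168% to 0.0259%.

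The 10 genes together held between 0.637% (6h-2, Wilson interval 0.623% to 0.651%) and 4.44% (NT-1, 4.40% to 4.48%) of the miRNA counts of a library. The first time course had a mean of 2.36% ± 1.08 and the second one of 2.36% ± 1.35 (SD, n = 6 each). As a share of all accepted reads, of which miRNAs made up more in the second, the means were 0.622% and 1.31%. In the first time course the shares after ECS were 1.75%, 1.87%, 2.65%, 1.80% and 1.63%, from 0.5 h to 24 h. In the second, NT-2 had 2.18% and the shares after ECS were 3.58%, 4.25%, 2.13%, 0.637% and 1.38% in the same order. The untreated library was the highest of 6 in the first time course and the third highest of 6 in the second.

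Levels were compared in CPM, the count of an arm as a share of the miRNA counts of its library, scaled by the TMM method and expressed per 1000000. Each read is 1 whole small RNA, so no correction for length is needed, although how well each sequence was cloned was not measured. Over the 12 libraries the mean level was 7981 ± 4147 CPM for miR-127-5p and 7517 ± 7329 CPM for miR-127-3p (SD, n = 12), the 23rd and 25th most abundant of the 1064 arms counted. MiR-433-3p followed with 3529.5 ± 3437 CPM, miR-341-3p with 2335 ± 4092 CPM and miR-434-3p with 600.4 ± 288 CPM. Down the order, miR-434-5p had a mean of 312 CPM, miR-540-5p 231, miR-337-5p 172, miR-136-3p 163, miR-370-3p 100.1, miR-136-5p 96.8, miR-433-5p 94.4, miR-493-5p 74.7, miR-431-3p 69.4 and miR-370-5p 64.3. The remaining 5 arms (miR-540-3p, miR-337-3p, miR-431-5p, miR-493-3p and miR-341-5p) had means between 1.01 and 28.9 CPM. Between neighbours in this order, the mean log2 difference within libraries exceeded its SD for only 3 of 19 pairs: miR-127-3p over miR-433-3p (1.08 ± 0.88), miR-370-5p over miR-540-3p (1.14 ± 0.71) and miR-540-3p over miR-337-3p (2.60 ± 1.26). The order of all other neighbours was within the spread between libraries.

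**Figure D1:**
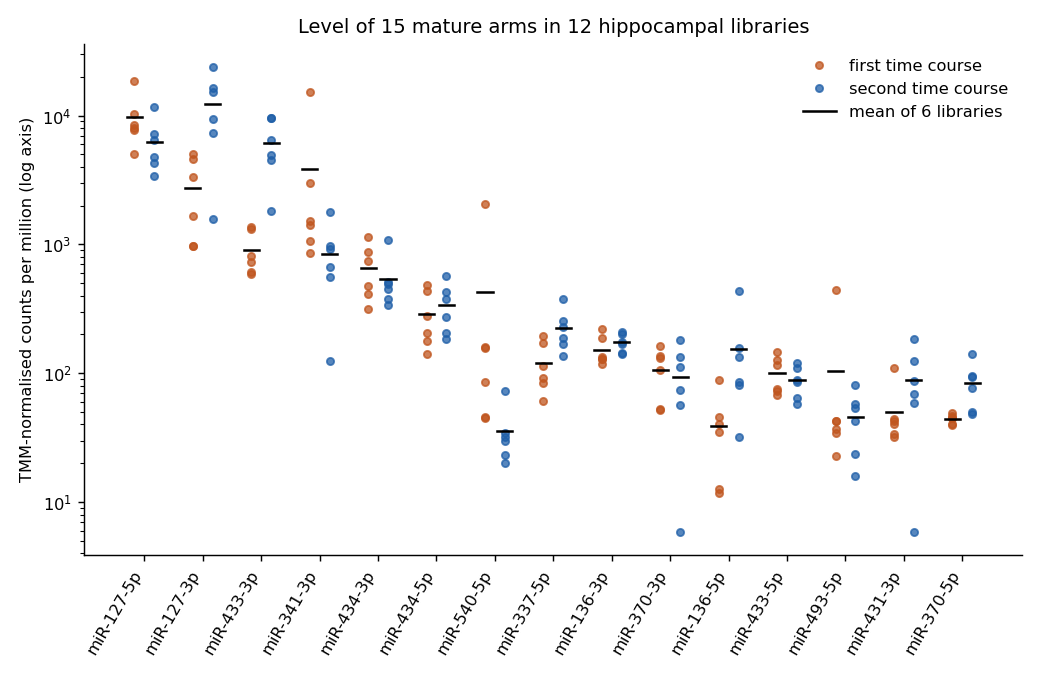
Level of the 15 arms with a mean of at least 100 counts per library, in TMM-normalised CPM on a log axis; each point is 1 library, orange for the first and blue for the second time course, and each bar is the mean of 6 libraries. The ranges of the time courses do not overlap for miR-433-3p, and single libraries lie far above the rest for miR-341-3p (15118, NT-1), miR-540-5p (2059, 3h-1) and miR-493-5p (441, 3h-1).

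MiR-433-3p and miR-127-3p, of the Rtl1 group, were the only member arms past the threshold in the comparison of time courses given below. From NT to 24 h, miR-433-3p stood at 614, 1321, 730.3, 593, 815 and 1367 CPM in the first time course. In the second it stood at 4512, 4951, 9612, 9578, 1809.5 and 6452 CPM. Its lowest library of the second time course was above its highest of the first, and it was the only 1 of the 17 member arms tested whose CPM ranges did not overlap, against 16.4% of all 470 arms tested. MiR-127-3p stood at 1652, 3319, 976, 4561, 972 and 5053 CPM in the first time course and at 9477, 16371, 23719.8, 15158, 1588 and 7359 CPM in the second. The second time course was higher at each of the 6 time points, and 6h-2 alone fell within the range of the first. For the opposite arm, miR-127-5p, the values were 10203, 7783, 5011, 18665, 8512 and 8012 CPM in the first time course and 7161, 11562, 6430.0, 4737, 4307 and 3392 CPM in the second. These ranges overlapped, and miR-127-5p was lower in the second for 4 of 6 time points.

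The ranges of the time courses overlapped for every arm of miR-434, miR-136 and miR-431, also opposite Rtl1. MiR-434-3p ranged from 313 to 1136 CPM in the first time course (746, 477, 866, 1136, 313 and 412 CPM from NT to 24 h) and from 336 to 1087 CPM in the second (495, 507, 453, 378, 1087 and 336 CPM). MiR-434-5p stood at 177, 486, 206, 142, 276 and 433 CPM in the first and at 379, 183, 424, 567, 204 and 272 CPM in the second. In the first time course the 3 libraries with the most miR-434-3p (NT-1, 1h-1 and 3h-1) had the least miR-434-5p. MiR-136-3p was the steadiest arm relative to its mean, with 219, 129, 134, 128, 187 and 119 CPM in the first time course and 202, 207, 144, 142, 169 and 175 CPM in the second, a range of 1.84-fold over 12 libraries. MiR-136-5p ranged 37.4-fold, with 34.9, 11.7, 45.6, 40.7, 89.2 and 12.6 CPM in the first and 31.7, 438, 157, 133, 81.7 and 86.2 CPM in the second. MiR-431-3p stood at 110.2, 33.6, 40.1, 32.1, 43.8 and 42.4 CPM in the first time course and at 69.4, 185, 124, 87.0, 5.83 and 58.7 CPM in the second. The lowest of these values rests on 5 counts in 6h-2. MiR-433-5p lay between 57.9 and 145 CPM in all 12 libraries, and its ranges in the time courses overlapped.

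In the Rian group a single library set the mean of miR-341-3p. It stood at 15118 CPM in NT-1 (24285 counts) and at 1519, 1409.9, 3016, 1059.5 and 852 CPM from 0.5 to 24 h in the same time course. In the second time course it stood at 923, 1794, 975, 563, 124 and 672 CPM. The next highest library had 3016 CPM, and NT-1 is the library with the short tags: 84.3% of its miR-341-3p counts were on tags of 18 or 19 nt, against 40.8% in the other libraries of the first time course together and 3.40% in the second. Whether tag length had a part in its level was not tested. MiR-370-3p ranged from 51.7 to 161 CPM in the first time course and from 5.83 CPM (5 counts, 6h-2) to 179.5 CPM in the second. MiR-370-5p was nearly level in the first time course (39.8 to 49.1 CPM) and reached 142 CPM in the second (94.2, 49.7, 94.8, 142, 47.8 and 77.1 CPM from NT to 24 h).

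In the group after Meg3, miR-540-5p and miR-493-5p were both high in 1 library, 3h-1. MiR-540-5p stood at 158, 45.3, 86.1, 2059, 161 and 45.7 CPM in the first time course and at 34.3, 72.2, 32.1, 30.0, 23.3 and 20.03 CPM in the second. MiR-493-5p stood at 34.2, 37.1, 42.8, 441, 22.7 and 42.9 CPM in the first and at 57.3, 15.9, 42.9, 54.2, 81.7 and 23.8 CPM in the second. The library 3h-1 had 2631 counts of miR-540-5p and 564 of miR-493-5p, so that counting error does not limit these values. It also had the highest miR-127-5p level (18665 CPM), while miR-337-5p, from the hairpin that ends 194 nt before that of miR-540, stood there at 83.7 CPM, within its range of 60.4 to 196 CPM in the first time course. In the second, miR-337-5p ranged from 137 to 376 CPM. A single tag of 22 nt supplied 2132 of the 2631 miR-540-5p counts of 3h-1. Peaks in 3h-1 were not particular to these genes: miR-344f-3p had 1967 counts there and at most 42 in any other library. For miR-1934-3p the counts were 1674 and at most 32.

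The division of a hairpin's counts between its arms does not depend on the size of the library, and it was compared for the 8 genes with at least 20 counts on both arms together in every library (miR-431 and miR-493 had fewer in 1 library each). MiR-127 had 86.1%, 70.1%, 83.7%, 80.4%, 89.8% and 61.3% of its counts on the 5′ arm in the first time course, from NT to 24 h. In the second it had 43.0%, 41.4%, 21.3%, 23.8%, 73.1% and 31.6%, with Wilson intervals at most 2.45 points wide in any library. The 5′ arm was thus the main arm in all 6 libraries of the first time course and the 3′ arm in 5 of 6 of the second, 6h-2 being the exception. The mean share was 78.6% ± 10.8 in the first and 39.0% ± 18.9 in the second (SD, n = 6 each), a difference of -39.5 points, the 5th largest difference among 148 miRNAs, lower in the second for 6 of 6 pairs of libraries. An exact permutation test over the 64 flips of libraries within time points gave p = 0.03125, two-sided, which is the smallest p this design allows, and 0.136 after Benjamini-Hochberg adjustment over the 148 miRNAs. No miRNA of the 148 passed an adjusted p of 0.05, 34 reached the unadjusted minimum, and the threshold is therefore not met for miR-127.

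MiR-433 was the only other member whose 5′ arm share moved the same way at 6 of 6 time points, 2 of 8 members against 23% of all 148 miRNAs. It had 11.4% ± 6.08 on the 5′ arm in the first time course and 2.06% ± 1.91 in the second (p = 0.03125, exact permutation test, adjusted p = 0.136), the 3′ arm being the main arm in all 12 libraries. The ranges of the time courses overlapped for all 8 members, against 12.8% of the 148 miRNAs whose ranges did not. For miR-136 the mean share was 18.9% in the first and 41.3% in the second, for miR-370 32.2% and 53.3%, for miR-540 77.6% and 53.4%, and for miR-434 33.0% and 39.8%, with adjusted p of 0.193 to 0.841 in the same exact test. MiR-127 and miR-370 were the 2 of 8 members whose mean share crossed 50%, against 6.08% of the 148 miRNAs. For miR-370 the mean depends on 6h-2 (89.1%, 46 counts), without which it was 46.2% in the second time course. Its medians over all libraries were 26.8% in the first and 55.8% in the second. The 6.08% is with all libraries. MiR-337 stayed on its 5′ arm (91.4% to 100%) and miR-341 on its 3′ arm (at most 0.167% on the 5′ arm) in every library.

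**Figure D2:**
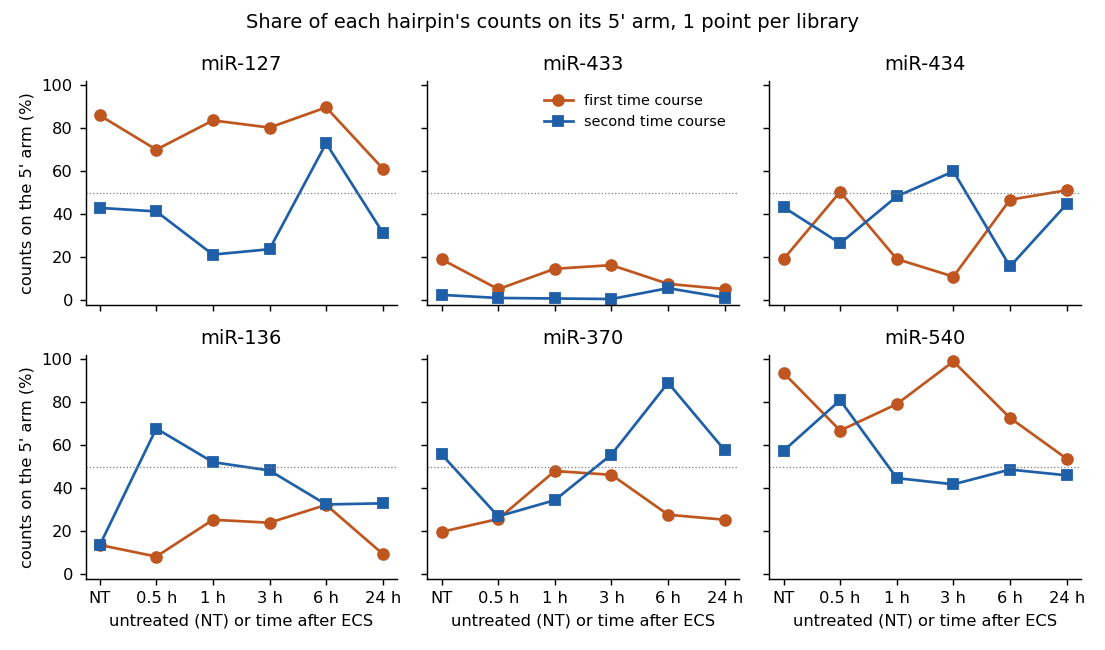
Share of each hairpin's counts on its 5′ arm in percent, against time after ECS, for 6 members; each point is 1 library, circles for the first and squares for the second time course, and the dotted line is 50%. The lines for miR-127 stay apart at every time point (61.3% to 89.8% against 21.3% to 73.1%), whereas those of miR-434 cross.

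Tag length moved with some of these values inside the first time course. The libraries 0.5h-1 and 24h-1 had 27.0% and 27.0% of the members' counts on tags of 22 nt, and the other 4 had 0.962% to 7.62%. The same 2 libraries had the lowest miR-127 5′ arm shares of that time course (70.1% and 61.3%), the highest miR-433-3p levels (1321 and 1367 CPM) and the highest miR-434-5p levels (486 and 433 CPM). MiR-127-3p did not follow this order: 3h-1, with 7.62% on tags of 22 nt, stood at 4561 CPM, above 0.5h-1 at 3319 CPM. In the second time course the share of 22 nt was 34.7% to 45.9% in all 6 libraries, including 6h-2 (34.7%), whose miR-127 arm share resembled the first. Counted on tags of 20 nt or more alone, the mean difference of the miR-127 arm share between time courses was -41.5 points.

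Several arms began at more than 1 base, and the leading tags are shown because each start gives another seed. For miR-127-5p, 43.3% of counts began at the RefSeq start, 37.0% at base +2 and 16.5% at base +3, counted from that start. For miR-341-3p, 20.6% began at the RefSeq start and 73.4% at base +4. The tags are given as sequenced, with T, and capitals mark bases 2 to 8.
miR-127-5p, RefSeq start: cTGAAGCTcagagggctctga
miR-127-5p, base +2: gAAGCTCAgagggctctgatt
miR-127-5p, base +3: aAGCTCAGagggctctgatt
miR-341-3p, RefSeq start: tCGGTCGAtcggtcggtcgg
miR-341-3p, base +4: tCGATCGGtcggtcggtca
miR-136-5p, RefSeq start: aCTCCATTtgttttgatgatgga
miR-136-5p, base -3: aGGACTCCatttgttttgat
miR-431-3p, RefSeq start: cAGGTCGTcttgcagggctt
miR-431-3p, base -2: tGCAGGTCgtcttgcagggc
miR-370-5p, RefSeq start: cAGGTCACgtctctgcagtta
miR-370-5p, base -4: aGACCAGGtcacgtctctgca
miR-136-3p, base -1: cATCATCGtctcaaatgagtct
The 2 starts of miR-341-3p are 4 bases apart in a stretch made largely of 1 repeated run of 4 letters, and the tags from base +4 end in letters that the RefSeq mature sequence does not reach.

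The mixture of starts differed between time courses for the same 2 arms, among others. The share of miR-127-5p counts from base +3 was 28.9% ± 12.5 in the first time course and 8.74% ± 3.97 in the second (SD, n = 6), lower in the second in 6 of 6 pairs of libraries, and no start held more than 53.8% of this arm in any library. Tags from base +2 and +3 ended on average 0.95 and 0.92 bases after the RefSeq end, whereas those from the RefSeq start ended 0.55 bases before it, so that the whole tag was displaced and not only its first base. The share of miR-341-3p counts at the RefSeq start was 9.60% ± 5.496 in the first and 42.7% ± 14.3 in the second, higher at 6 of 6 time points, with base +4 at 83.1% and 55.4%. For miR-136-5p the share at the RefSeq start was 25.2% ± 11.2 and 78.8% ± 16.3, though 5 of 6 libraries of the first time course held at most 56 counts and intervals were up to 37.1 points wide. MiR-431-3p was divided between base -2 (50.5%) and the RefSeq start (39.8%), with 9.29% at base -3. MiR-370-5p began mainly at base -4 (71.1%) and miR-136-3p at base -1 (80.7%). In the summed counts the other abundant arms kept mainly to the RefSeq start: 98.1% of miR-127-3p, 97.8% of miR-433-3p, 97.4% of miR-434-3p, 97.4% of miR-337-5p, 99.6% of miR-540-5p and 98.8% of miR-493-5p. The share was 75.1% for miR-434-5p and 91.6% for miR-370-3p. For miR-127-3p the mean was 93.4% in the first time course and 98.3% in the second, higher in the second in 6 of 6 pairs. MiR-434-5p had 50.2% in NT-1, and miR-370-3p 40% in 6h-2 (5 counts). These shares are described without a test.

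**Figure D3:**
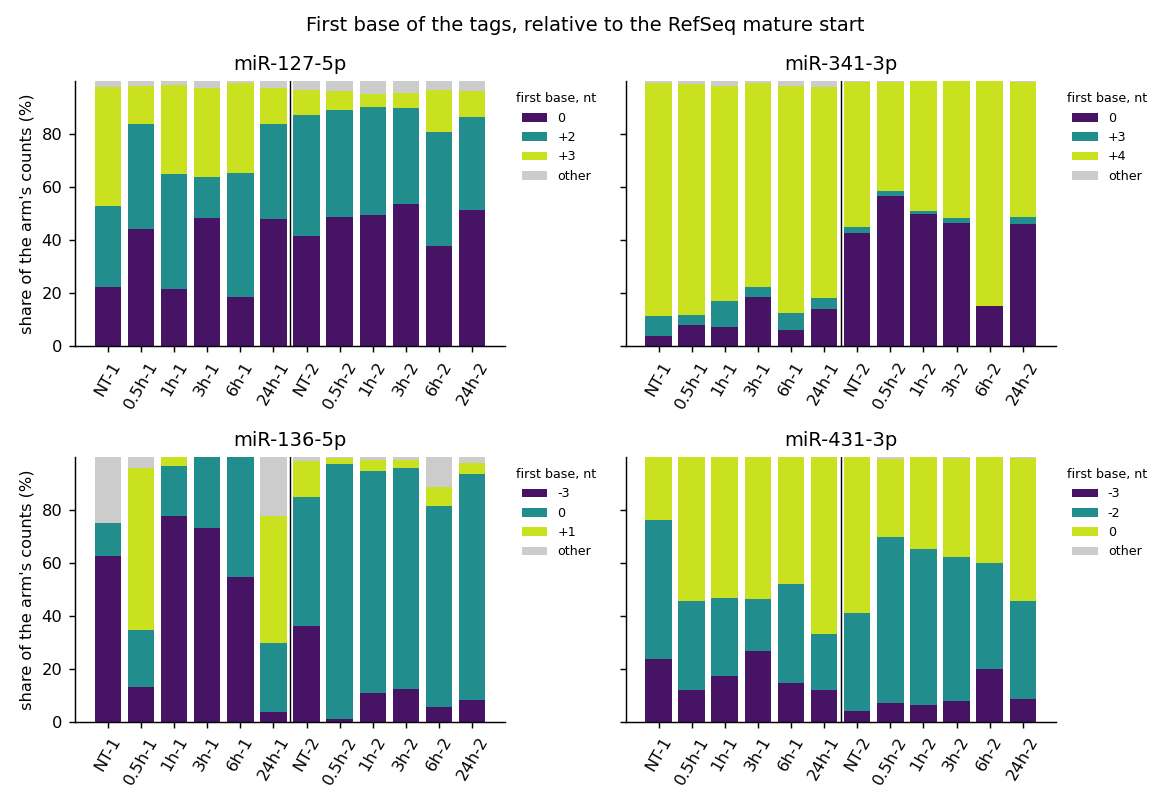
Share of an arm's counts in percent by the first base of the tag, in nt from the RefSeq mature start, for 4 arms; each bar is 1 library and the vertical line parts the time courses. The share of miR-341-3p at the RefSeq start is 3.96% to 18.4% in the first time course and 15.1% to 56.5% in the second, and miR-127-5p is divided among 3 starts in every library.

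The 3′ ends set the lengths. MiR-127-3p was found mainly as tags of 20 nt (52.3%) and 22 nt (38.3%), with 7.28% at 21 nt, and miR-433-3p likewise as 20 nt (40.8%) and 22 nt (51.9%), with 4.91% at 21 nt. MiR-434-3p instead had 34.8% at 21 nt and 42.0% at 22 nt, and miR-136-5p 68.8% at 23 nt. In the summed counts, the RefSeq mature sequence itself accounted for 38.3% of miR-127-3p, 51.9% of miR-433-3p, 40.5% of miR-434-3p and 14.4% of miR-127-5p. Tags of 18 and 19 nt made up 63.1% of the members' counts in NT-1, 7.36% to 17.9% in the other libraries of the first time course and 0.722% to 4.22% in the second.

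The study describes a marked batch effect between its 2 time courses and could not say whether library construction or sequencing caused it. It considers an accurate reading of expression changes from these reads unlikely. The time courses also used different mice, so animals and batch cannot be told apart here. The second time course was compared with the first over the 470 arms that had 10 counts or more in 2 or more libraries, with the time point as a covariate. Of these, 151 arms (32.1%) passed an adjusted p of 0.05 (edgeR quasi-likelihood test, Benjamini-Hochberg), 92 higher (19.6%) and 59 lower (12.6%) in the second. Of the 17 member arms tested, 2 passed, both higher in the second time course and both 3′ arms of the Rtl1 group. MiR-433-3p had a log2 fold change of 2.65 ± 0.52 (SE, adjusted p = 0.00284, edgeR, n = 6 per time course), or 6.28-fold. MiR-127-3p had a log2 fold change of 2.01 ± 0.56 (adjusted p = 0.0161, edgeR, n = 6 per time course), or 4.04-fold. The share of member arms called was below that of all arms. The nearest of the others were miR-540-5p (-2.01 ± 0.76, adjusted p = 0.0553, edgeR), miR-341-3p (-1.67 ± 0.65, adjusted p = 0.0624, edgeR) and miR-136-5p (1.77 ± 0.70, adjusted p = 0.0660, edgeR), and the remaining 12 lay between -0.63 and 0.96. The opposite arm of miR-127 had -0.63 ± 0.46 and that of miR-433 -0.19 ± 0.43. The median log2 fold change was 0.21 over the member arms and 0.29 over all arms, and the values above are to be read against the latter. Scaled by total miRNA count instead, the median over all arms was -0.30, 49 arms were called higher and 114 lower, and miR-127-5p, miR-341-3p and miR-540-5p were called lower beside the same 2 higher. The summed shares of smooth muscle and of red blood cell miRNAs, whose ranges did not overlap, also differed between the time courses. MiR-451a and miR-486 did not follow the red blood cell sum, and of its 3 miRNAs only miR-144 did. Neuronal miRNAs, the share of miRNA in accepted reads and the tag lengths differed as well, by the values given above. Which of these had a part in the result was not tested.

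**Figure D4:**
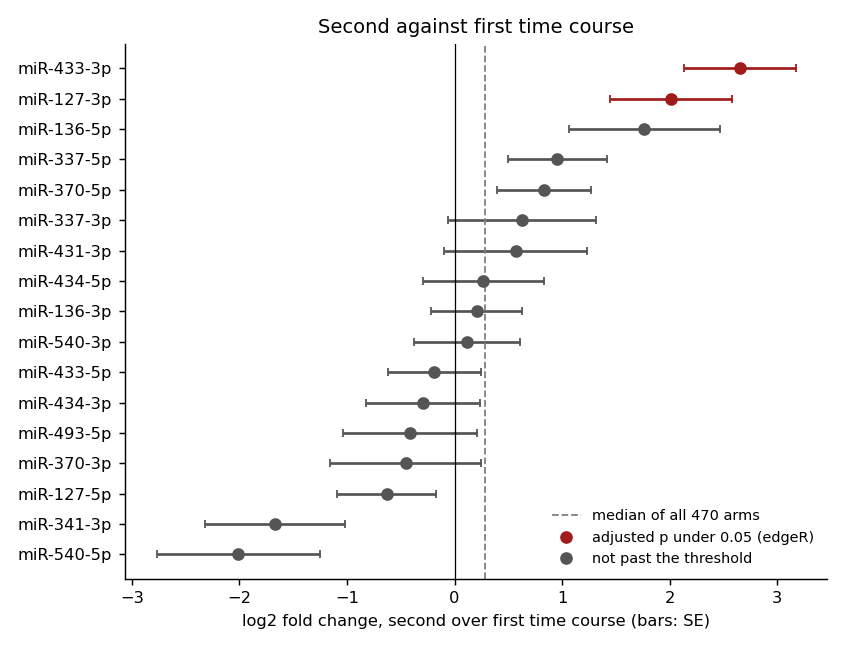
Log2 fold change of the 17 member arms tested, second over first time course, with bars for the SE (edgeR, 6 libraries in each time course); red points passed an adjusted p of 0.05 and the dashed line is the median of all 470 arms, 0.29. Only miR-433-3p (2.65) and miR-127-3p (2.01) passed.

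ECS was compared with untreated at each time over the same 470 arms. At none of the 5 times did an arm reach an adjusted p under 0.05 (edgeR quasi-likelihood test, Benjamini-Hochberg, 2 libraries per group), so that 0% of all arms and 0 of 17 member arms were called, and the lowest adjusted p of a member was 0.982, 1.00, 0.999, 0.994 and 0.989 in order of time. DESeq2 called 1 arm at 0.5 h and 2 at 3 h, none of them a member, and 0 at the other times. Without adjustment, 9 of 470 arms (1.91%) had a p under 0.05 at 0.5 h. The number was 2 (0.426%) after 1 h, 10 (2.13%) after 3 h, 9 (1.91%) after 6 h and 8 (1.7%) after 24 h, with members among them only at 6 h and 24 h, miR-341-3p both times. The SE of a member's log2 fold change was 0.88 to 1.65 in this fit, which leaves the difference between time courses in the spread. With the time course added as a block it was 0.73 to 1.24. With 2 libraries per group, differences of several-fold could be missed in either fit. By quantitative PCR, which was not examined here, the study reported that most miRNAs declined at late times after ECS and a minority rose.

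MiR-341-3p had a log2 fold change of -3.76 ± 1.47 at 6 h (unadjusted p = 0.0242, adjusted p = 0.994, edgeR) and of -3.40 ± 1.45 at 24 h (unadjusted p = 0.0357, adjusted p = 0.989, edgeR). At 0.5, 1 and 3 h its log2 fold change was -2.28, -2.75 and -2.16. All 5 values rest on NT-1: without that library they became 0.89, 0.42 and 1.00 at 0.5, 1 and 3 h, and -0.59 and -0.23 at 6 and 24 h. In the second time course, miR-341-3p was above NT-2 at 2 times and below it at 3. The largest positive values were those of miR-540-5p at 3 h (3.44 ± 1.65, adjusted p = 0.999, edgeR), miR-136-5p at 0.5 h (2.75 ± 1.49, adjusted p = 0.982, edgeR) and miR-493-5p at 3 h (2.43 ± 1.17, adjusted p = 0.999, edgeR), each from 1 of the 2 libraries. Without 3h-1 the first became -2.15 and the last -0.01, and without 0.5h-2 that of miR-136-5p became -1.52.

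Within the time courses, each library after ECS was also set against the untreated library of its own time course, as a description. MiR-433-5p was the only 1 of the 15 abundant arms that lay on the same side of NT at all 5 times in both time courses, 1 of the 17 member arms tested against 4.68% of all 470 arms, with log2 ratios of -0.20 to -1.08 in the first and -0.13 to -1.04 in the second. All of these ratios share NT-1 or NT-2. MiR-136-5p was above NT-2 at all 5 times (log2 ratio 1.34 to 3.74) but above NT-1 at 3 of 5. MiR-127-3p was above NT at 0.5, 3 and 24 h in the first time course and at 0.5, 1 and 3 h in the second, and at 6 h it was below NT in both, with log2 ratios of -0.76 and -2.58. With the time course as a block, which the shared replicate numbers allow, 0 of 470 arms passed at every time. The log2 fold change of miR-341-3p was then -3.63 ± 1.09 at 6 h (unadjusted p = 0.00483, adjusted p = 0.567, edgeR). At 24 h it was -2.60 ± 1.09 (unadjusted p = 0.0318, adjusted p = 0.660, edgeR). That of miR-540-5p at 3 h was 2.88 ± 1.24 (unadjusted p = 0.0350, adjusted p = 0.742, edgeR).

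**Figure D5:**
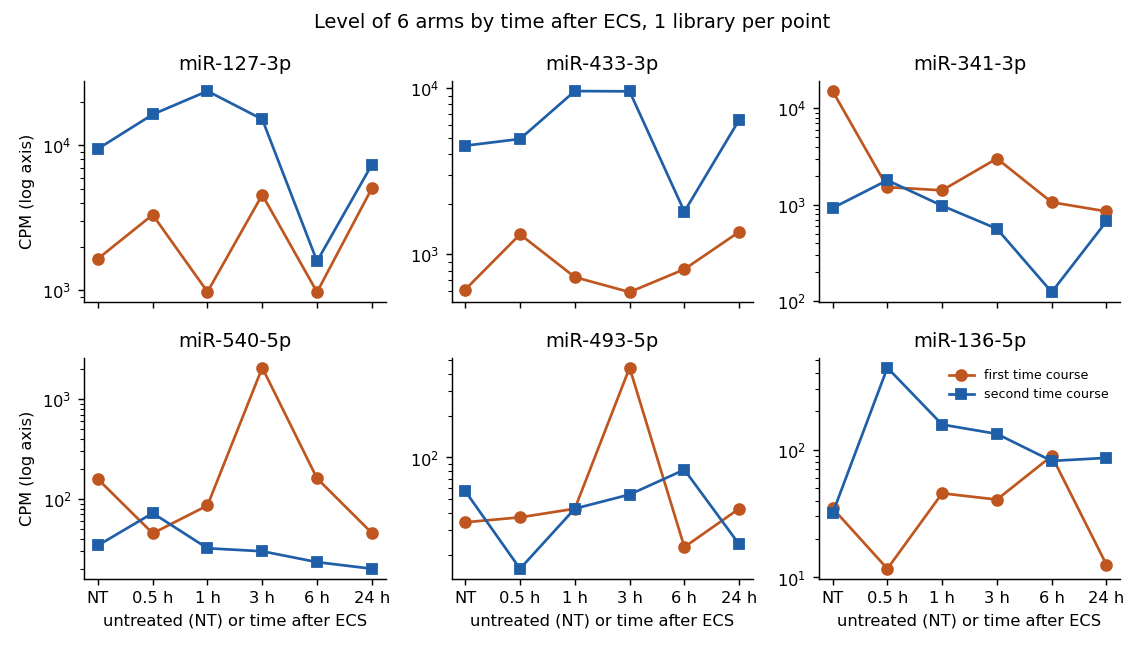
Level of 6 member arms in TMM-normalised CPM, on a log axis that differs between panels, against time after ECS; each point is 1 library, circles for the first and squares for the second time course. MiR-127-3p and miR-433-3p are separated by time course at all 6 time points, and the peaks of miR-341-3p (NT-1), miR-540-5p and miR-493-5p (3h-1) and miR-136-5p (0.5h-2) each appear in 1 time course.

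The rest of the imprinted locus was counted beside these genes. GENCODE places 47 other miRNA names on the plus strand between Dlk1 and Dio3, of which 42 had counts, 610561 in all. The miR-379 to miR-410 cluster, downstream of the genes described here, held 598466 counts, led by miR-376a-3p with 124986, and the 8 other names between the start of Meg3 and miR-370 held 12074, led by miR-770-3p, whose gene is hosted by Meg3, with 10056. In the second time course, 10 of the 57 other arms tested were called higher and 4 lower (edgeR, Benjamini-Hochberg, adjusted p under 0.05), and none was called at any time after ECS, against 2 and 0 of 17 for the members. The ratio of the 10 genes to the cluster moved from 0.316 (6h-2) to 2.48 (1h-2) in the second time course and from 0.471 (6h-1) to 1.88 (NT-1) in the first. The members therefore did not keep a fixed proportion to the downstream cluster.

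Finally, the arms whose levels most resembled those of the 2 most abundant members were listed over the 12 libraries, after the mean of each time course was subtracted from log2(CPM + 1), among the 212 arms whose count was 10 or more in each library. MiR-127-3p was most like miR-676-3p (Pearson r = 0.93), miR-134-5p (0.87), a neuronal miRNA of the downstream cluster, and miR-328-3p (0.85). MiR-127-5p was most like miR-540-5p (0.76), miR-8114-5p (0.71) and miR-181a-3p (0.65). These 3 arms had their highest level of the first time course in 3h-1, and without that library, left out after the data were seen, r was 0.64, 0.53 and 0.48. For miR-8114-5p, r was 0.94 within the first time course and 0.38 within the second. The arms of miR-127 had r = 0.51 with each other, and 0.44 without 3h-1. The arms named were picked for the highest r, so that a lower value for this pair follows from the selection. The values of 1 library share its preparation and depth, and these r are a description.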

How the data were processed

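Small RNA of 18 to 25 nt was cut from gels, ligated to adapters, amplified and sequenced on an Illumina Genome Analyzer IIx. The authors removed adapters and deposited, for each library, every distinct tag of at least 18 nt with its count, not normalized. These counts were taken before any alignment, and the aligner is not given in the sources used here.

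Tags were matched exactly over their full length to 1178 annotated miRNA hairpins (1090 names after loci of 1 name were joined; GENCODE M21, GRCm38), so that reads with an error or added 3′ bases were left out. A tag belonged to the arm in which its midpoint lay. No member count was shared with another miRNA. The sequences of all 10 hairpins were identical in RefSeq. The most abundant tag of each arm occurred in no other annotated transcript; the rest of the genome was not searched.

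The 470 arms that had 10 counts or more in 2 or more libraries were tested with edgeR 4.0.16 (R 4.3.3; TMM, quasi-likelihood F test), all 12 libraries in 1 fit, and p-values were adjusted by the Benjamini-Hochberg method over all 470 arms. The SE was taken as the log2 fold change divided by the root of F. Arm shares were compared by exact flips within time points in Python 3.11.15 (scipy 1.17.1). DESeq2 1.42.0 and the other alternatives are given in the closing section. The scripts were tested on simulated data. No 2 libraries agreed within sampling noise. According to the study, replicate numbers mark the time courses, and same-numbered libraries deviated together (r of 0.363 to 0.812 over 15 pairs of groups). All arms are named, and those with a mean of at least 100 counts per library are described by library. The members and lists were chosen with earlier results of these data known.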

Additional observations from a re-analysis of the deposited data

Results flagged for a closer look

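Each of 48 sets of 6 libraries (the levels of the 15 abundant arms, the 5′ arm shares of 8 hairpins and the members' share, in each time course) was searched for a library far from the others, by a gap to its nearest neighbour above 0.625 of the whole range. For independent sets of normal values, chance gives about 1 in 20, or 2.4, and 9 were found. The levels in CPM were not shown to be normal, and the sets share libraries and hairpins. The 9 can therefore not be read as an excess over 2.4.

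In the first time course, 3 of the 9 lay in NT-1, the library with the short tags: miR-341-3p at 15118 CPM, against 852 to 3016 CPM in the other 5 libraries, miR-431-3p at 110.2 CPM, against 32.1 to 43.8 CPM, and the members' share of miRNA counts at 4.44%, against 1.63% to 2.65%. Another 2 lay in 3h-1: miR-540-5p at 2059 CPM, against 45.3 to 161 CPM, and miR-493-5p at 441 CPM, against 22.7 to 42.9 CPM.

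In the second time course, 2 lay in 6h-2, the library with the fewest accepted reads: miR-434-3p at 1087 CPM, against 336 to 507 CPM, and the 5′ arm share of miR-337 at 91.4%, against 97.7% to 98.9%. The other 2 lay in 0.5h-2: miR-136-5p at 438 CPM, against 31.7 to 157 CPM, and miR-540-5p at 72.2 CPM, against 20.03 to 34.3 CPM. Without NT-1, miR-341-3p kept no negative log2 fold change at 0.5, 1 and 3 h after ECS.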

How the results depend on the processing

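The calls of miR-127-3p and miR-433-3p between time courses held under all 22 alternatives run, and member arms called ranged in number from 2 to 5. The number was 5 by total count without TMM, with DESeq2, without a filter and without the time point as covariate, 4 with at least 10 counts in every library, with tags that match 1 miRNA and with tags of 20 nt or more, and 2 to 4 with any 1 library left out (4 without 0.5h-1, 0.5h-2 or 24h-2). Without NT-1 and 6h-2 together, an alternative chosen after seeing the data, it was 4. The additions were miR-540-5p (lower, 11 of 22 alternatives), miR-136-5p (higher, 10), miR-341-3p (lower, 8), miR-127-5p (lower, 1) and miR-431-3p (higher, 1). All arms called numbered 151, 223 with DESeq2, 85 with at least 10 counts in every library and 95 without 1h-1. Leaving out 1 library also takes its partner at that time out of the comparison.

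Some log2 fold changes between time courses that were not past the threshold changed sign: miR-136-3p to -0.42 by total count and -0.11 with tags of 20 nt or more (leaving out 1 library, -0.041 to 0.28, and 0.37 without NT-1 and 6h-2), miR-434-5p to -0.38 by total count and -0.020 by the first 18 nt (-0.23 to 0.62), miR-431-3p to -0.016 by total count, miR-540-3p to -0.49 by total count, -0.036 with tags that match 1 miRNA and -0.012 without the time point (-0.22 to 0.39), and miR-370-3p from -0.45 to 0.31 with tags of 20 nt or more and 0.43 without NT-1 and 6h-2 (leaving out 1 library, -0.99 to 0.10). The cause was not tested. After ECS, leaving out 1 library gave -3.20 to 0.89 at 0.5 h, -3.66 to 0.42 at 1 h and -4.36 to 1.00 at 3 h for miR-341-3p, -1.52 to 3.74 for miR-136-5p at 0.5 h, and at 3 h -2.15 to 4.98 for miR-540-5p and -0.0063 to 2.96 for miR-493-5p. No member was called at any time under any alternative. Of all arms, the replicate block called 0 at every time, DESeq2 called 1 at 0.5 h and 2 at 3 h, and the fit without a filter called 1 at 3 h.

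The 5′ arm share difference of miR-337 became 2.98 points with tags of 20 nt or more and -0.84 to 1.46 with 1 time point left out, and that of miR-434 -1.64 to 14.4. With 5 time points the exact test cannot give p under 0.0625. As a share of all accepted reads, the members' mean was 0.622% in the first time course and 1.31% in the second. Without NT-1 it was 1.94% of miRNA counts and without 6h-2 that of the second was 2.71%. With 2 libraries per group and SEs near 1 on the log2 scale, the ECS comparisons detect only large changes, and rare arms (miR-431-3p and miR-370-3p in 6h-2, 5 counts each) are limited by depth.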
